A study of Mus musculus with 8 samples.

Results

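The miR-10, miR-99, miR-100 and miR-125 families were described in the liver of mice with diet-induced steatohepatitis, with and without metformin. The 7 members were chosen by name from the 1135 miRNA probes of the array: mmu-miR-10a, mmu-miR-10b, mmu-miR-99a, mmu-miR-99b, mmu-miR-100, mmu-miR-125a-5p and mmu-miR-125b-5p. No measured value served as a filter for this choice, but it was made with earlier results of these data known. Both groups were male C57BL/6N mice, 8 weeks old at the start, with no genetic modification named, and were fed for 15 weeks on a diet lacking methionine and choline (MCD diet), which produces fatty liver with inflammation without obesity. The MCD group (4 arrays) received no drug, and the MCD + metformin group (4 arrays) received metformin at 2.4 mg/day in the drinking water for the same 15 weeks. Metformin is a biguanide that lowers hepatic glucose output. The arrays of a group came from separate animals, as the study's text has it. No normal-diet arrays are analysed here, so no value below says how a member stood relative to healthy liver. Whole liver was extracted, so that fewer cells of a type and less RNA per cell cannot be told apart.

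A miRNA guides a silencing complex to messenger RNAs, chiefly by pairing through its seed, which is the stretch near its 5′ end. The miR-10, miR-99 and miR-100 sequences are related to each other and are among the most ancient animal miRNAs, while miR-125 is the vertebrate counterpart of lin-4, the founding miRNA of Caenorhabditis elegans. The genes of miR-10a and miR-10b lie in Hox clusters and their products repress Hox messenger RNAs. Members of the miR-99/miR-100 family repress mTOR in human cells, and miR-125 represses the let-7 inhibitor Lin28. Paralogous clusters join miR-99 or miR-100 with a let-7 and a miR-125 gene.

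The mature sequences are shown because shared seeds define the families and because near-identical members may not be separated by hybridization. All 7 members matched an entry of the RefSeq miRNA table (mouse build GRCm38.p6, plus strand). In each line, written 5′ to 3′, capitals mark the seed, bases 2 to 8.
mmu-miR-10a: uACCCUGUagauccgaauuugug
mmu-miR-10b: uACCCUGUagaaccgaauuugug
mmu-miR-99a: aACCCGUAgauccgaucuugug
mmu-miR-99b: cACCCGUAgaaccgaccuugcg
mmu-miR-100: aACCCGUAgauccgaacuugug
mmu-miR-125a-5p: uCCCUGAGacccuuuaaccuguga
mmu-miR-125b-5p: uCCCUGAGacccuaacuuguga

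The 7 members thus carried 3 seeds. Counted from 1 at the 5′ end, with the base of the first-named miRNA first, miR-10a and miR-10b differed only by U12A, and miR-99a and miR-100 only by U16A. The change from miR-99a to miR-99b comprised A1C, U11A, U16C and U21C. The seeds of miR-10a and miR-100 differ, yet the pair shared a run of 11 bases that starts at base 7 of miR-10a and base 6 of miR-100. From their first base, miR-125a-5p and miR-125b-5p shared a run of 13 bases. How far the probes separate such near-identical miRNAs was not tested, so the values of miR-10a and miR-10b, and those of miR-99a and miR-100, may share signal.

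The miR-10a sequence lies at chr11:96317186-96317208, within the span of Hoxb3 and next to Hoxb4, and miR-10b at chr2:74726074-74726096, within the spans of Hoxd3 and Hoxd4. On chromosome 9, miR-100 (chr9:41531437-41531458) and a first copy of miR-125b-5p (chr9:41581940-41581961) lie in the non-coding host gene Mir100hg. On chromosome 16, miR-99a (chr16:77598940-77598961) and another copy of miR-125b-5p (chr16:77646279-77646300) lie in no other annotated gene. The miR-99b (chr17:17830194-17830215) and miR-125a-5p (chr17:17830817-17830840) sequences lie in Spaca6. Both miR-125b loci give the same mature sequence, so its signal cannot be assigned to either.

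Signals below are the median scanner intensity over the pixels of a spot, in arbitrary units, and fold changes are log2 differences of normalized values, MCD + metformin minus MCD, with the standard error (SE) and 95% interval of the fit. Probes differ in how strongly they hybridize and no probe's level was set against another's. Detection required a signal more than 2 SD over the average blank spot of the array. All 7 members were detected on all 8 arrays and were tested. Against the brighter limit set in the same way by the 24 negative control spots, 6 members lay above it on all 8 arrays and miR-10b on 7.

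Metformin treatment was not associated with a detectable change of any member. None of the 7 passed an adjusted p of 0.05 with limma, where 0% of the 1070 probes tested passed. None passed an unadjusted p of 0.05 either, against 9.44% of all tested probes (68 higher and 33 lower). The 2 groups overlapped for all 7 members, while 4.77% of tested probes had groups that did not overlap. The fitted change was above 0 for 7 of 7 members, with a median of 0.10, against 58.4% of tested probes and a median of 0.03. Among the 221 probes above the negative control limit on 4 or more arrays, the median change was 0.09, close to that of the members. Under at least 1 other scaling or background correction the fitted change was below 0 for miR-10a, miR-10b, miR-99b, miR-125a-5p and miR-125b-5p.

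**Figure D1:**
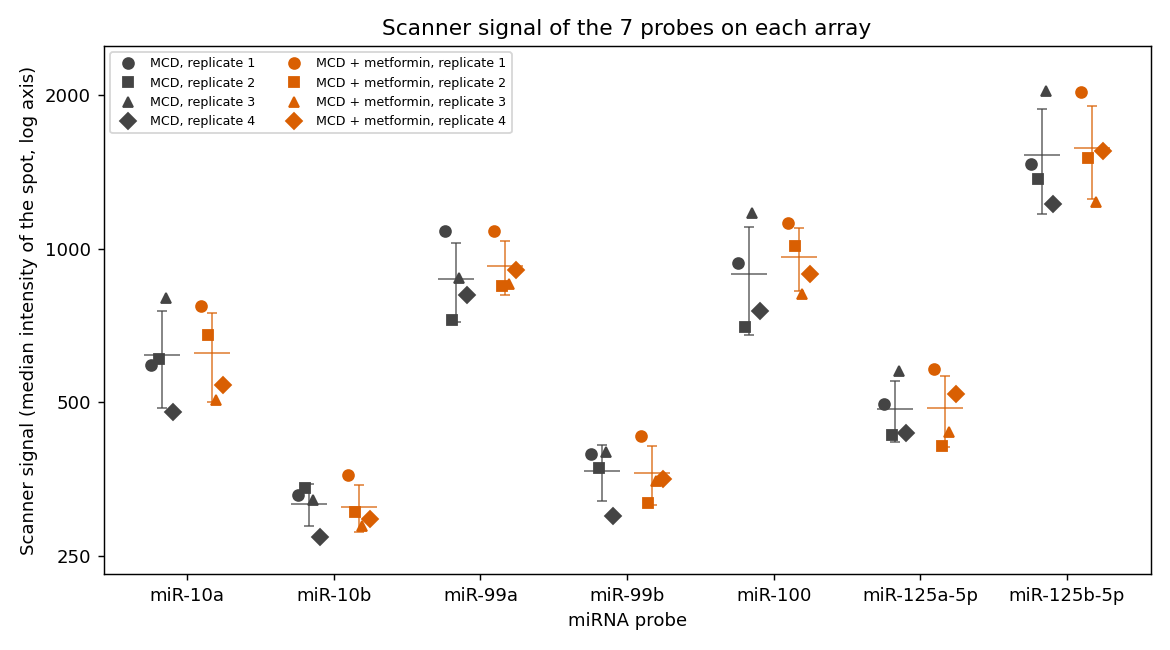
Scanner signal (median intensity of the spot, arbitrary units, log axis) of the 7 members on each of 8 arrays, where each marker is 1 array and the horizontal line and bar give the group mean and SD (n = 4). The MCD and MCD + metformin markers overlap for every member, for example 479 to 801 against 506 to 774 for miR-10a.

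The miR-10 family carries the seed ACCCUGU. For miR-10a the signal was 591, 609, 801 and 479 in MCD-fed mice 1 to 4, and 774, 679, 506 and 540 in MCD-fed mice 1 to 4 treated with metformin. MCD 3 was the highest array and MCD 4 the lowest, so the range of the untreated group enclosed that of the treated group. Group means were 620.0 ± 134 and 624.8 ± 125 (SD, n = 4 each). The log2 fold change was 0.09 (SE 0.18, interval -0.29 to 0.47, limma adjusted p = 0.957).

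The miR-10b probe, which differs from miR-10a at a single base of the target, read 329, 339, 321 and 272 in MCD-fed mice and 360, 305, 286 and 295 in those treated with metformin. Its lowest value, 272 on MCD 4, was the only member reading below the limit of the negative control spots. Means were 315.2 ± 29.8 and 311.5 ± 33.3 (SD, n = 4 each). The normalized change was 0.02 (SE 0.14, interval -0.28 to 0.33, limma adjusted p = 0.976). The mean signal was thus slightly lower and the normalized value slightly higher with metformin, both by less than the spread between arrays.

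Of the miR-99/miR-100 family, which shares the seed ACCCGUA, miR-99a read 1086, 724, 875 and 811 in MCD-fed mice and 1085, 847, 855 and 907 in those treated with metformin. The brightest arrays of both groups were almost equal, and the untreated group reached lower. Means were 874.0 ± 154 and 923.5 ± 111 (SD, n = 4 each). After normalization all 4 treated arrays lay above the MCD mean, with a change of 0.19 (SE 0.13, interval -0.09 to 0.47, limma adjusted p = 0.676). The two-sided exact permutation test gave p = 0.229 (n = 4 against 4, where the smallest possible p is 0.0286). Single arrays moved the value either way. It was 0.30 without MCD 1, with an unadjusted limma p of 0.0300 and an adjusted p of 0.440, but 0.10 without MCD 2 and 0.13 without metformin 1.

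For miR-100, a single base away from miR-99a, the signal was 939, 701, 1174 and 755 in MCD-fed mice and 1126, 1011, 817 and 893 in those treated with metformin. Both the highest and the lowest array belonged to the MCD group. Means were 892.2 ± 214 and 961.8 ± 136 (SD, n = 4 each). This member had the largest fitted change of the 7, 0.23 (SE 0.16, interval -0.10 to 0.57, limma adjusted p = 0.676), and all 4 treated arrays lay above the MCD mean. The two-sided exact permutation p was 0.343 (n = 4 against 4). Here too single arrays moved the value either way. The change was 0.39 without MCD 3, with an unadjusted limma p of 0.0119 and an adjusted p of 0.420, but 0.11 without MCD 2 and 0.15 without MCD 4.

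The third family member, miR-99b, read 395, 372, 399 and 299 in MCD-fed mice and 430, 317, 350 and 354 in those treated with metformin. MCD 4 stood well below the other 3 untreated arrays, and metformin 1 was above every untreated array while the other 3 treated arrays lay within the untreated range. Means were 366.2 ± 46.4 and 362.8 ± 47.8 (SD, n = 4 each). The log2 change was 0.07 (SE 0.17, interval -0.30 to 0.44, limma adjusted p = 0.968). The spot of miR-99b on MCD 1 was uneven: its pixels averaged 866 against a median of 395, and their SD was 1.79 times their mean, where the median over the spots of all probes and arrays was 0.269. With pixel means in place of medians, the change of miR-99b was -0.36 (limma adjusted p = 0.806).

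The miR-125 family carries the seed CCCUGAG. Signals of miR-125a-5p were 496, 432, 575 and 435 in MCD-fed mice and 580, 411, 437 and 518 in those treated with metformin. Here the treated group held both extremes, 580 and 411. Means were 484.5 ± 67.2 and 486.5 ± 77.2 (SD, n = 4 each). The log2 change was 0.10 (SE 0.15, interval -0.22 to 0.42, limma adjusted p = 0.903).

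For miR-125b-5p the signal was 1470, 1368, 2038 and 1223 in MCD-fed mice and 2026, 1506, 1234 and 1554 in those treated with metformin. A single array of each group, MCD 3 and metformin 1, stood above the rest, and the lowest arrays of the groups were close. Means were 1525 ± 357 and 1580 ± 329 (SD, n = 4 each). The change was 0.14 (SE 0.16, interval -0.20 to 0.47, limma adjusted p = 0.836). The exact permutation p-values of the 5 members not given one above lay between 0.543 and 0.857 (two-sided, n = 4 against 4).

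**Figure D2:**
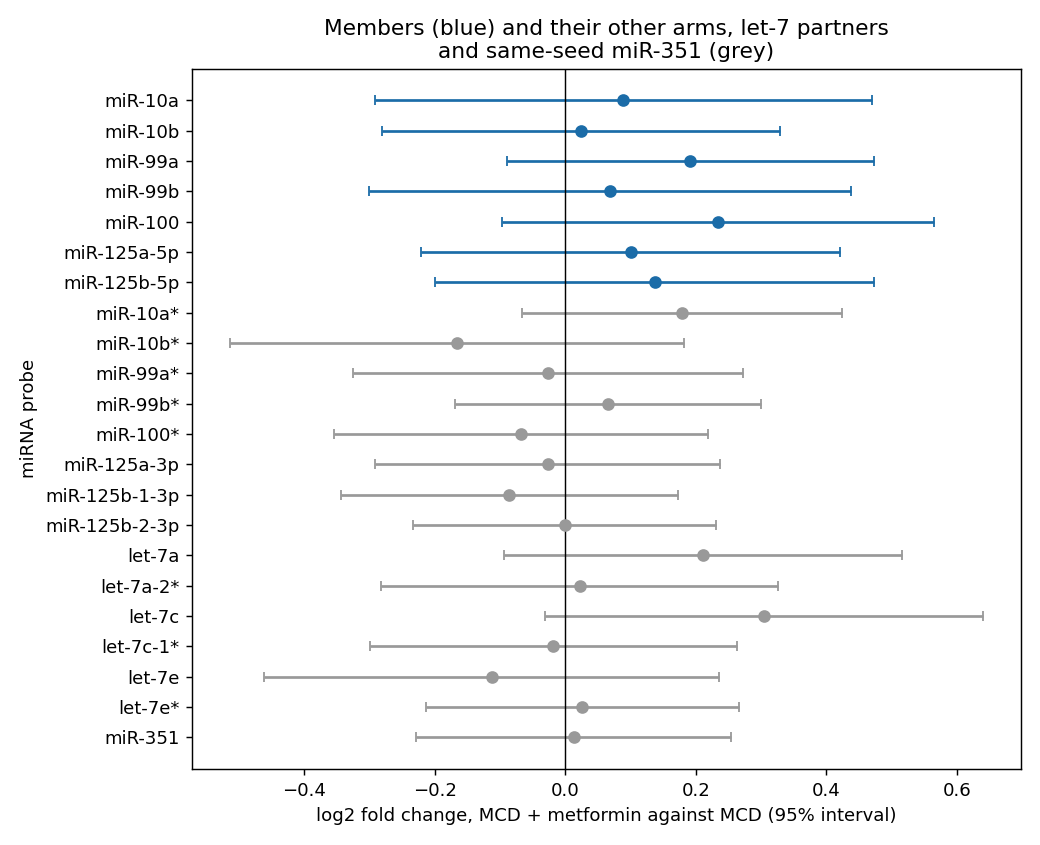
Log2 fold change, MCD + metformin against MCD, with its 95% interval (n = 4 against 4), for the 7 members in blue and, in grey, the other arms of their hairpins, the let-7 partners and miR-351, which has the miR-125 seed. Every interval includes 0, and the members range from 0.02 for miR-10b to 0.23 for miR-100, a direction that other scalings reverse for miR-10a, miR-10b, miR-99b and miR-125a-5p and local background subtraction reverses for miR-10a and miR-125b-5p.

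For each member the pooled SD between arrays of a group was larger than the fitted change between the groups. The margin was narrow for miR-99a (0.20 against 0.19) and miR-100 (0.28 against 0.23). Each array came from a separate mouse, so that variation of the mouse and of the array cannot be told apart. Within groups the pooled SD of the normalized log2 value was 0.34 for miR-10a, 0.33 for miR-99b, 0.28 for miR-125b-5p and miR-100, 0.26 for miR-125a-5p, 0.24 for miR-10b and 0.20 for miR-99a, against a median of 0.17 over all tested probes and 0.21 over the 158 bright probes, those that exceeded the negative control limit on all arrays. Thus 6 of 7 members varied more than the median bright probe, and miR-99a slightly less. From the lowest to the highest array of either group, the members spanned 0.64 (miR-125a-5p) to 0.99 (miR-99b) log2 units. Such a span includes any difference between the groups.

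On some arrays the members deviated together. On metformin 1, 7 of 7 members lay above their own mean over the 8 arrays, with a median deviation of 0.34, and this was the highest array for miR-10b, miR-99a, miR-99b, miR-125a-5p and miR-125b-5p. On MCD 3, 6 of 7 lay above (median 0.29), all but miR-99a, and it was the highest array for miR-10a and miR-100. On MCD 4, 0 of 7 lay above (median -0.34). Both a treated and an untreated array were thus at the upper end. The median deviation of the 158 bright probes was 0.22 on metformin 1, 0.07 on MCD 3 and -0.18 on MCD 4, so that the bright probes moved the same way by less. What part this has in the members' values was not tested.

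**Figure D3:**
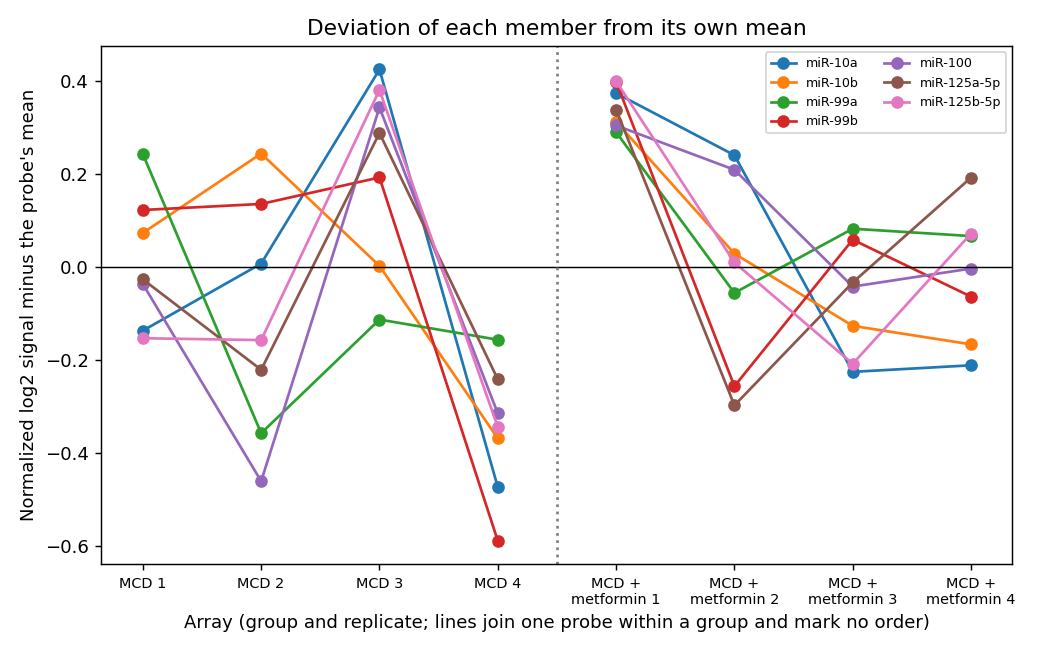
Normalized log2 signal of each member minus its own mean over the 8 arrays, by array, where lines join the arrays of a group and carry no order. All 7 members lie above 0 on metformin 1 (0.29 to 0.40) and below 0 on MCD 4 (-0.59 to -0.16), and miR-99a departs from the others on MCD 1 and MCD 3.

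Over the 8 arrays, with values centred on each group's mean, Pearson's r among the 21 pairs of members ran from 0.0442 (miR-10a with miR-99a) to 0.866 (miR-10a with miR-125b-5p), with a median of 0.52, against 0.31 over all 12403 pairs of bright probes. These correlations are descriptions, since all probes of an array share its RNA, labelling and scaling. Having the same seed did not order them: r was 0.801 for miR-125a-5p with miR-125b-5p and 0.716 for miR-10a with miR-10b, but 0.442 for miR-99a with miR-100, 0.402 for miR-100 with miR-99b and 0.390 for miR-99a with miR-99b.

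Among the bright probes, those most like miR-10a were let-7d (r = 0.988), miR-30a (0.983) and miR-28 (0.971). The closest to miR-125b-5p were miR-16 (0.983), miR-30c (0.967) and miR-26a (0.963), and the closest to miR-100 were let-7a (0.967), miR-30e (0.948) and miR-24-2* (0.931). A probe that reads miR-199a-3p together with miR-199b led the list of miR-125a-5p (0.940), ahead of miR-34a (0.934) and miR-27a (0.926). For miR-99b these were miR-20b (0.912), miR-21 (0.865) and miR-28c (0.854), and for miR-10b they were miR-28c (0.885), the member miR-99b (0.805) and miR-23a (0.771). The nearest to miR-99a were miR-5100 (0.822), miR-3077* (0.822) and miR-378b (0.810). No cluster partner was among the 3 nearest to miR-99a, miR-99b, miR-125a-5p or miR-125b-5p, whereas let-7a, which has a gene in the miR-100 cluster, was the nearest to miR-100. Each list was picked from 157 or 158 candidate probes over 8 arrays.

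Partners from the same clusters gave a further comparison. The let-7 miRNAs promote differentiation. Of the 6 let-7 partner probes tested, 0 passed either threshold with limma. A change above 0 was seen for 4 of the 6, against 58.4% of all tested probes. The probes of let-7a-2*, let-7c-1* and let-7e*, which read opposite arms of the hairpins, were dim. They lay above the negative control spots on 1, 1 and 0 of 8 arrays. Signals of let-7a were 5586, 4448, 7015 and 4484 in MCD-fed mice and 7144, 6392, 4673 and 5328 in those treated with metformin. As for miR-125b-5p, metformin 1 and MCD 3 were the brightest arrays. Its change was 0.21 (SE 0.14, limma adjusted p = 0.676).

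For let-7c, from the miR-99a cluster, the values were 3854, 3556, 5037 and 3248 in MCD-fed mice and 6263, 4729, 3289 and 4287 in those treated. The change was 0.30 (SE 0.16, interval -0.03 to 0.64, limma adjusted p = 0.579), with overlapping groups. By contrast let-7e, which lies between miR-99b and miR-125a, read 851, 759, 1067 and 625 in MCD-fed mice and 911, 739, 623 and 668 in those treated, with a change of -0.11 (SE 0.16, limma adjusted p = 0.894). Both let-7a and let-7c have more than a single locus, so their signals cannot be assigned to these clusters.

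The difference of 2 log2 values on the same array removes the array's scaling, and its absolute level, which depends on the probes, was not read. Between MCD-fed mice with and without metformin, 13 such ratios overlapped in all cases. The change of the ratio was 0.06 ± 0.17 (SE) for miR-10a to miR-10b, -0.04 ± 0.185 for miR-99a to miR-100 and 0.04 ± 0.12 for miR-125b-5p to miR-125a-5p. The ratio of miR-100 to let-7a was the steadiest of the 13. It was -2.77, -2.96, -2.73 and -2.83 in MCD-fed mice and -2.83, -2.83, -2.74 and -2.80 in those treated, a change of 0.02 ± 0.05. For comparison, miR-99a to let-7c ran from -2.76 to -1.99 in MCD-fed mice, with a change of -0.11 ± 0.22.

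The ratio of miR-99a to miR-100 was lowest on MCD 3 (-0.52) and metformin 2 (-0.33), and lay between -0.08 and 0.22 on the other 6 arrays. In the chromosome 17 cluster the change was -0.03 ± 0.17 for miR-99b to miR-125a-5p, 0.18 ± 0.15 for miR-99b to let-7e and -0.21 ± 0.17 for let-7e to miR-125a-5p. For each of these ratios the values of both groups overlapped.

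**Figure D4:**
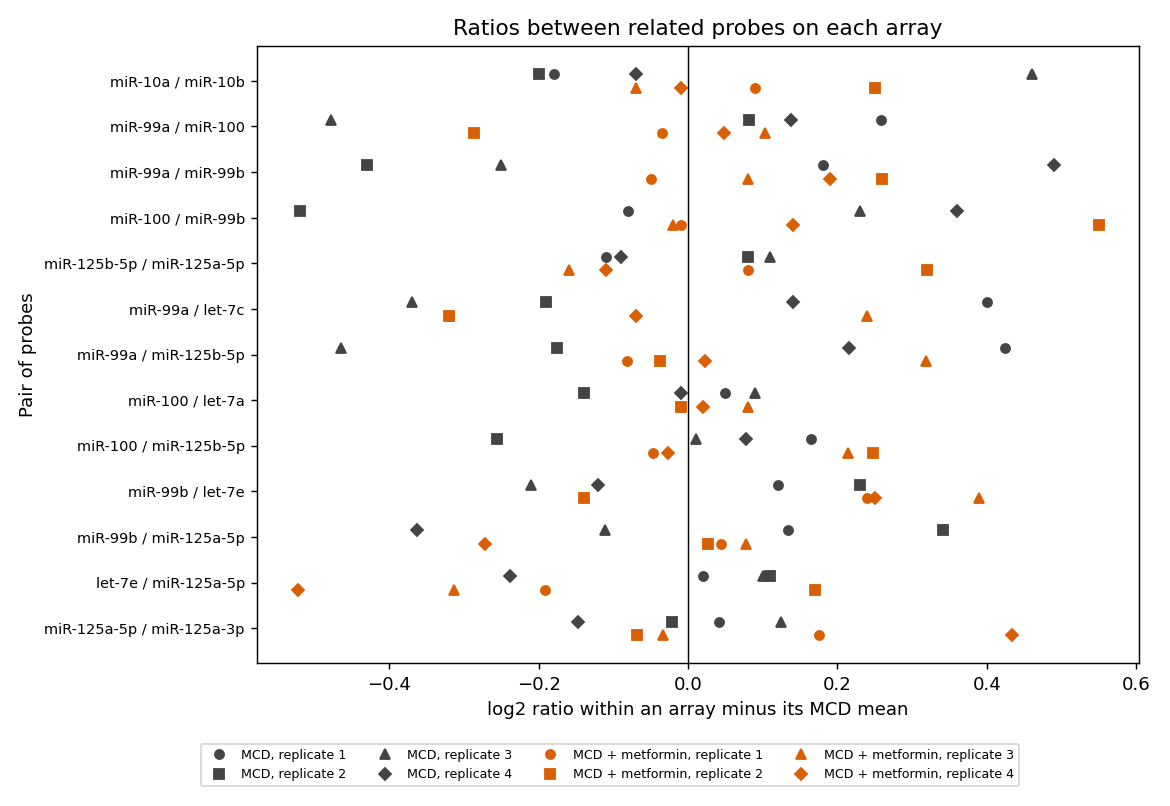
Log2 ratio of 13 pairs of related probes on each array, each minus the pair's MCD mean (horizontal axis), where each marker is 1 array. The groups overlap for all 13 pairs, and miR-100 / let-7a has the narrowest spread (SD 0.10 in MCD and 0.04 in MCD + metformin, n = 4 each).

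The opposite arms of the hairpins, which are usually degraded, were dim except for miR-125a-3p. Of the 8 other-arm probes, 6 lay above the negative control spots on no array, and miR-125a-3p was the only one above them on all arrays. The signals of miR-125a-3p were 619, 547, 697 and 583 in MCD-fed mice and 680, 529, 565 and 536 in those treated. Its change was -0.03 (SE 0.12, limma adjusted p = 0.974), and that of the ratio of miR-125a-5p to miR-125a-3p was 0.13 ± 0.13. Both arms of the miR-125a hairpin thus overlapped between the groups. For the 8 other arms the median change was -0.03, with 2 of 8 above 0 and 0 past either threshold with limma.

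The array also held miR-351, which carries the same seed as miR-125 on chromosome X (minus strand, chrX:53053315-53053338) and is shown to set its seed beside the rest of its sequence.
mmu-miR-351: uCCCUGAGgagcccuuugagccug
It lay above the negative control spots on 1 of 8 arrays, and its change was 0.01 (SE 0.11, limma adjusted p = 0.989). The 7 other probes for miRNAs of the Hox clusters, those of miR-196 and miR-615, lay above these spots on all arrays in 0 of 7 cases. Their changes, 0.01 to 0.23 with a median of 0.05, passed neither threshold with limma.

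As a check of the tissue, miR-122, the dominant hepatocyte miRNA, read 17416 to 19934 in MCD-fed mice and 20702 to 27623 in those treated with metformin. The summed signal of 8 hepatocyte probes was 25592 to 29243 against 30270 to 40235 (8 of 8 above 0, 6 higher at an unadjusted p of 0.05, 0 adjusted). Such sums add scanner signals that were neither normalized nor corrected for background, so that the brightest probe, here miR-122, weighs most. The corresponding sums were 6833 to 13672 against 5883 to 9111 for 8 stellate cell and fibroblast probes (2 of 8 above 0, 3 lower unadjusted) and 4013 to 5277 against 4693 to 6191 for 2 endothelial probes (2 of 2 above 0, both higher unadjusted). They were 1715 to 2298 against 1457 to 1822 for 5 leukocyte probes (0 of 5 above 0, 1 lower unadjusted), 1909 to 3898 against 1493 to 2955 for 5 biliary probes (0 of 5, 1 lower unadjusted) and 1302 to 2412 against 1562 to 2579 for 3 red blood cell probes (3 of 3, 0 unadjusted). No marker probe passed an adjusted p of 0.05 with limma. The part of cell composition in the members' values was not tested. Between 868 and 970 probes were detected on the MCD arrays and 848 to 1018 on the MCD + metformin arrays. All MCD arrays lay at 1 position of the scanned slide (spot rows from 3680) and all MCD + metformin arrays at another (from 35240), so that treatment cannot be told apart from position. The median local background was 156 to 162 on the former and 135 to 143 on the latter, and its part in the members' values was not tested beyond the alternative corrections.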

How the data were processed

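Liver RNA of 8 mice was labelled and hybridized by the authors to one-colour miRNA arrays. The deposited scanner files give the median and mean intensity of each spot, its local background and other values (pixel SD, position), linear and not normalized. The deposited value table holds the authors' normalized intensity, a straight line of the same signals with the median of each array set to 45, and served as an alternative. The methods name normalization to 28S RNA and an analysis of variance, which were not repeated. With R 4.3.3 and limma 3.58.1, median intensities were corrected by normexp (offset 50), control and blank spots were left out, and each array's log2 values were centred on the median over 451 probes that were detected on every array. The fit covered 1070 probes, each detected on 4 or more arrays, and used lmFit and eBayes (unpaired, two-sided, Benjamini-Hochberg adjustment over all of them). The offset understates changes of dim probes. Exact permutation tests used all 70 assignments. The fit was tested on simulated data with independent probes, which leaves out the deviations that probes of an array share. Named miRNAs are the members, their other arms, cluster partners, miRNAs with the same seed, Hox cluster miRNAs, marker lists, and the 3 bright probes most correlated with each member. Members and lists were chosen with earlier results of these data known. Groups and replicate numbers come from the sample labels, and the replicates are taken as separate mice from the study's text. Python 3.11.15 with SciPy 1.17.1 was used for the exact tests. Alternatives concerned background, scaling, filter, spot summary, test, the replicate block and each array left out. The number of arrays limits the precision.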

Additional observations from a re-analysis of the deposited data

Results flagged for a closer look

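In a search of 44 groups of 4 arrays for a single array far from the rest, where chance alone flags about 1 in 20 groups, 2 were found. The normalized log2 signal of miR-99b on MCD 4 was 7.06, against 7.77 to 7.84 on the other 3 MCD arrays, a gap of 0.911 of the group's whole range. Its scanner signal there was 299. The value of miR-351 on metformin 3 was 7.32, against 7.01 to 7.06 on the other 3 treated arrays, a gap of 0.846 of the range, at a scanner signal of 287.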

How the results depend on the processing

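Over 168 alternative values of the 7 members, 151 kept their direction and 17 did not, and none passed an adjusted p of 0.05 (lowest 0.420). Alternatives that altered only the filter, the test or the replicate block repeat the main fit's change exactly. Their direction could not turn, and they are counted among the 151. Unadjusted, miR-99a and miR-100 passed 0.05 with 1 array left out, and no member did under the methods' t-test. The changes of miR-99a and miR-100 stayed above 0 in 24 of 24 alternatives each (0.03 to 0.30 and 0.09 to 0.39). That count includes the alternatives that repeat the main change, and all of them reuse the same arrays. Scaling to the probes above the negative control spots, which moved the median of all probes from 0.03 to -0.09, gave -0.0296 for miR-10a, -0.0942 for miR-10b, -0.0497 for miR-99b and -0.0182 for miR-125a-5p. It called 10 probes adjusted (0 in the main fit) and 48 unadjusted (101 in the main fit), 8 of the 48 higher. Each of the 7 members had the same SE there, 0.1993. Without scaling, miR-10b was -0.0458 and miR-99b -0.0013 (24 of 84 unadjusted calls higher). Quantile normalization gave -0.0467 for miR-10a (43 of 93 higher), and local background subtraction -0.0277 for miR-10a and -0.0182 for miR-125b-5p. Pixel means, chosen after seeing the data, gave -0.11 for miR-10b and -0.36 for miR-99b. Unadjusted calls numbered 56 among probes detected on all arrays, 34 among those exceeding the negative control spots on 4 or more, and 61 in the deposited value table, all 3 with fewer probes tested (451, 221 and 620). Otherwise the cause was not tested.

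Leaving out each array in turn, the change ran from -0.0707 to 0.246 for miR-10a, -0.11 to 0.10 for miR-10b and -0.13 to 0.17 for miR-99b, all 3 below 0 without MCD 4 and without metformin 1. It ran from 0.10 to 0.30 for miR-99a, 0.11 to 0.39 for miR-100, 0.0043 (without metformin 1) to 0.22 (without metformin 2) for miR-125a-5p, and 0.03 (without metformin 1) to 0.29 (without MCD 3) for miR-125b-5p. For miR-125a-5p it was also 0.04 without MCD 2, 0.02 without MCD 4, 0.04 without metformin 4 and 0.21 without MCD 3, and for miR-125b-5p 0.03 without MCD 4 and 0.22 without metformin 3. Adjusted calls ran from 0 to 9, with 9 without MCD 4. Numbers did not pair the samples (correlations of same-numbered deviations -0.30 to 0.03), and a replicate block left 0 adjusted and 87 unadjusted calls and changed no call on a member. With 4 arrays a group, the intervals of the members' changes had lower ends of -0.30 to -0.09 and upper ends of 0.33 to 0.57 log2 units. The dim readings of miR-10b and miR-99b lay near the negative control spots.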
